A study of Homo sapiens with 6 samples.

Results

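The Wnt pathway was followed in U251 cells through 42 protein-coding genes out of the 21429 rows of the deposited table. They were picked by symbol: the numbered WNT, FZD, DKK and SFRP genes together with the named coreceptors, intracellular regulators, transcription factors and feedback genes of the pathway. Of the 42 genes, 36 had a mean of at least 3 on the scale of the table and were tested among 15327 such genes. Another 15 symbols of the same choice, among them WNT1, WNT3A, SFRP2, WIF1 and RNF43, are not analysed here. U251 is an established human glioma line, used here with stable, doxycycline-induced expression of amyloid precursor protein carrying K670N/M671L; both groups carry it. Cells (1000000 per electroporation) received 2.5 µL of siRNA at 20 µM, either a control siRNA (siNC, 3 libraries) or an siRNA against RPL13 (siRPL13, 3 libraries). Doxycycline at 1 µg/mL was added with new medium at 24 h and RNA was taken at 72 h. Values are regularized-log (rlog) values, which are on the log2 scale, are corrected for library size and are drawn towards each gene's own mean, more so for genes with few reads. Read depth is unknown, so no counting error is given, and differences of low genes are understated.

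Wnt proteins are secreted, lipid-modified ligands that bind Frizzled receptors together with a coreceptor. With LRP5 or LRP6 as coreceptor the signal stops a complex of AXIN, APC and kinases from marking beta-catenin for degradation, and beta-catenin then acts on target genes with the TCF/LEF factors. ROR1, ROR2 and RYK serve branches that do not need beta-catenin, such as cell polarity and migration. Secreted DKK1 blocks the LRP coreceptors, a role that its relative DKK3 does not share, and SFRP proteins bind the ligands. AXIN2, NKD1, LGR5 and ZNRF3 are switched on by the signal and mostly dampen it. In glioma the pathway is known for its part in stem-like growth and invasion.

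RPL13, a gene of the large ribosomal subunit, was read first, since it tests the labels. Its siNC values were 14.05, 14.16 and 14.18; siRPL13 replicates 1 and 2 read 13.03 and 13.12, against 14.09 in the library labelled siRPL13 replicate 3. The target was thus not lowered in 1 of the 3 siRPL13 libraries, so the counts of genes called and the members that fell are given for all 6 libraries and for the 5 that remain without that library, called the 5-library comparison. A difference with no number of libraries beside it is from the 5-library comparison. With 6 libraries the log2 difference of RPL13 was -0.72 ± 0.24 (SE; limma, adjusted p 0.589); in the 5-library comparison it was -1.06 ± 0.06 (adjusted p 8.13e-06). That comparison leaves a library out because of its RPL13 level, so this fall is not independent of the choice. "Rose" and "fell" below stand for a limma adjusted p under 0.05 in the 5-library comparison, with 2 siRPL13 against 3 siNC libraries. Of 12 astroglial and glioma markers, 10 could be tested, with GFAP between 14.73 and 15.50 and SOX2 between 13.38 and 13.52 over all libraries. S100B lay lower, between 5.48 and 5.83, and ALDH1L1 stayed under 1. GFAP read 15.504, 15.123 and 14.984 in siNC and 14.983, 14.807 and 14.729 in siRPL13 replicates 1 to 3. All its siRPL13 libraries thus lay below siNC, as for 6.9% of all genes. Its 5-library difference of -0.31 ± 0.12 (SE) did not pass (limma, adjusted p 0.0985). Markers of neurons, leukocytes, epithelium and endothelium had summed levels that overlapped between the groups. Of 8 neuron markers 7 could be tested, with MAP2 between 10.32 and 10.66, SYT1 between 8.58 and 8.78 and GAP43 between 8.55 and 8.81. RBFOX3 stayed under 1. Of 4 leukocyte markers in the table CD68 and ITGAM stood under 1 in every library, TREM2 lay between 1.17 and 1.31 and CSF1R between 4.88 and 5.22. Of 7 epithelial markers CDH1 and ESRP1 stood under 1 and KRT19 between 1.27 and 1.32, while KRT18 lay between 7.78 and 8.15 and KRT8, CLDN4 and MUC1 between 5.66 and 6.75. Of 5 endothelial markers KDR, between 11.75 and 12.06 over all libraries, rose and CDH5 fell, while TEK stayed under 1. STMN2, a neuron marker singled out after its values were seen, stood at 7.71 in the library labelled siRPL13 replicate 3 and between 4.61 and 4.66 in the other 5.

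DKK1, the secreted antagonist that closes off LRP5 and LRP6, is also known as a target of the signal it blocks. It was the only matched member whose promoter held a TCF/LEF core word of those searched. Only the words CTTTGAT and CTTTGAA, and no other forms, were searched, on both strands, in the 250 bases before each RefSeq start (GRCh38.p14). They occur in the promoters of 7.24% of 27305 symbols and in 1 of the 27 members with a promoter in that table. The stretch is shown because it is the only such match; it lies at chr10:52314161-52314217 on the plus strand, and the capitals mark the word, whose first base is 95 bases before the start.
DKK1: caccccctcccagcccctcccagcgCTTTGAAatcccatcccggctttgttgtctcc
A match of letters is a description of the sequence and not a measured binding site.

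Levels of different genes were compared per length, as the rlog value minus the log2 of the gene's joined exon length in kb, in the siNC libraries. On this scale DKK1 was the highest of the 42 genes at 13.76, ranging from 13.70 to 13.79 over the 3 libraries, and DKK3 followed at 10.56. LRP5, the coreceptor, stood at 9.10 and LGR4, the receptor for R-spondins, at 8.89; the ranges of these 2 genes overlapped, at 8.96 to 9.25 and 8.74 to 9.07. Among the receptors FZD2 stood at 8.78, FZD7 at 8.60 and FZD6 at 8.58, and FZD1 at 8.08 lay below all 3. FZD2, no lower than 8.74 in any siNC library, lay above FZD7 and FZD6, whose ranges of 8.52 to 8.67 and 8.48 to 8.70 overlapped.

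**Figure D1:**
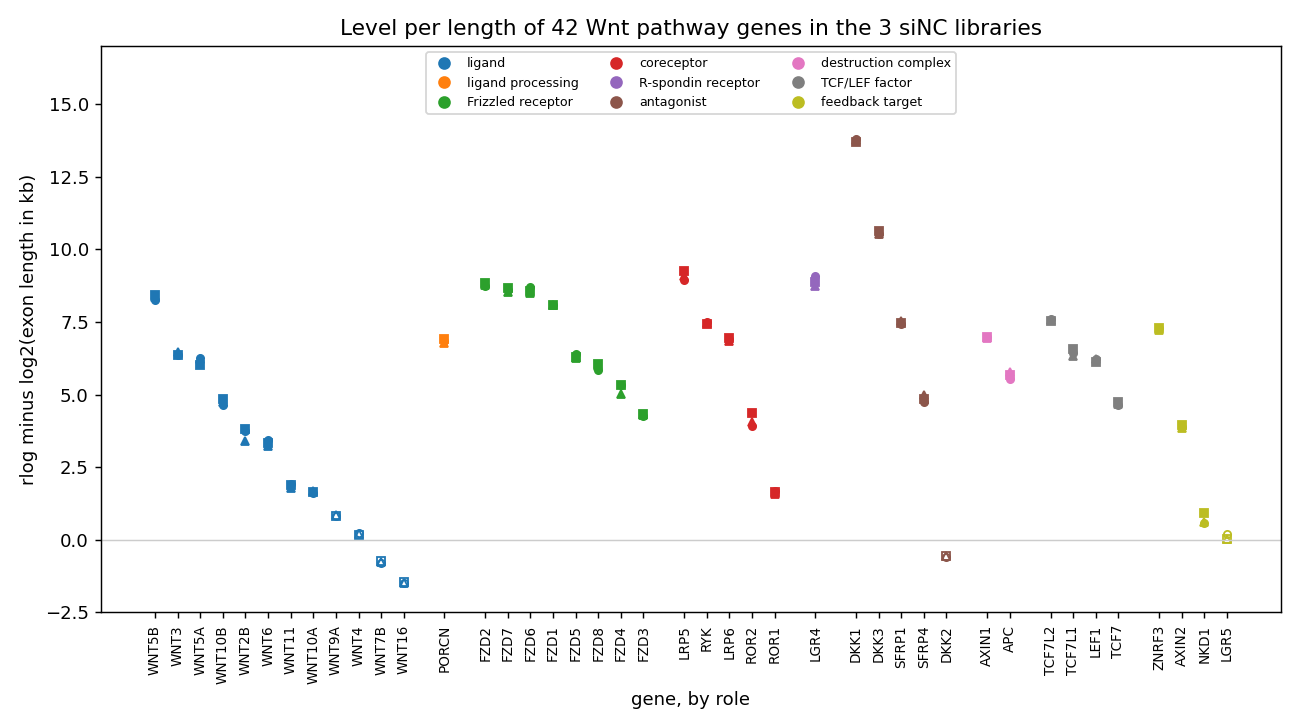
Level of each gene in the 3 siNC libraries (vertical axis, rlog minus log2 of exon length in kb), grouped by role on the horizontal axis; circles, squares and triangles are siNC replicates 1, 2 and 3, and open symbols are genes under the mean rlog of 3. DKK1 stands highest at 13.76, and 6 genes, 4 of them ligands, have open symbols.

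Among ligands WNT5B was highest per length at 8.34, followed by WNT3 at 6.39 and WNT5A at 6.16, whose highest value of 6.27 lay below the lowest of WNT3, 6.35. WNT5A and WNT5B are known mainly for signalling without beta-catenin. WNT10B stood at 4.74, WNT2B at 3.66 and WNT6 at 3.32 per length, and the other 6 ligands stood below 2. TCF7L2 was the highest of the TCF/LEF factors per length at 7.57, ahead of TCF7L1 at 6.44, LEF1 at 6.19 and TCF7 at 4.69. Exon lengths join all annotated transcripts, so a gene with long, little-used exons, such as NKD1 with 17425 bases, is set too low.

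With all 6 libraries no member differed past the threshold. Of 36 tested, 0 were higher and 0 lower (limma), as for 0% of all genes; 1 member, WNT10A, had an unadjusted p under 0.05, against 8.32% of all genes. In the 5-library comparison 6 members fell and 0 rose, which is 16.7% of the 36 against a background of 19.1% of all genes called, 10.7% lower and 8.42% higher. Counted in either direction, the share of members called in this fit was near that of all genes. The 6 were WNT5B, FZD7, DKK1, DKK3, SFRP1 and TCF7L1, with falls between 0.18 and 0.47 (log2). With a further library left out, no member passed without siRPL13 replicate 1 (0 of 36, against 1.59% of all genes), and 1 (SFRP1, 2.78% against 6.15%) passed without siRPL13 replicate 2. The count was 3 (DKK1, SFRP1 and WNT5B, 8.33% against 15.4%) without siNC replicate 2, 10 (27.8% against 24.5%) without siNC replicate 1 and 9 (25% against 14.7%) without siNC replicate 3. The median difference of the members was -0.08 over 5 libraries and -0.05 over 6, against 0.00 over all genes tested in each. Negative differences were held by 27 of the 36 over 5 libraries, 75% against 50.5% of all genes, and by 23 over 6, 63.9% against 50.4%. Both siRPL13 replicates 1 and 2 lay below every siNC library for 15 members, 41.7% against 26.6% of all genes, and above every one for 4, 11.1% against 24.7%. Cultures were measured as a whole, so fewer cells with a transcript and less of it per cell cannot be told apart.

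Secreted antagonists held 3 of the 6 members that fell, out of 4 antagonists tested (75%, against 10.7% of all genes that fell). With so few genes this share is a description and was not tested. It counts DKK3, which does not share the LRP-blocking role of DKK1. The call of DKK3 did not hold with quantile scaling or without a variance trend, as given below. SFRP1 (ENSG00000104332, GRCh38 chromosome 8, 41261958 to 41309497, minus strand) binds Wnt ligands outside the cell. It read 9.68, 9.71 and 9.77 in siNC and 9.17 and 9.33 in siRPL13 replicates 1 and 2, against 9.81 in the library labelled siRPL13 replicate 3. The first pair of siRPL13 libraries lay below every siNC library and the other one above them all. Over 6 libraries the mean was 9.72 ± 0.04 for siNC and 9.44 ± 0.33 for siRPL13 (SD, n = 3 each), a difference of -0.28 ± 0.14 (SE, log2; limma, adjusted p 0.594). In the 5-library comparison SFRP1 fell by 0.47 ± 0.07, to 72.3% of siNC on the rlog scale (limma, adjusted p 0.00159).

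DKK1 (ENSG00000107984, chromosome 10, 52314296 to 52318042, plus strand), described above with its promoter word, read 14.93, 14.84 and 14.92 in siNC and 14.62 and 14.68 in siRPL13 replicates 1 and 2, against 15.00 in the library labelled siRPL13 replicate 3. It had the same order as SFRP1, with the library labelled siRPL13 replicate 3 above every siNC library. DKK1 fell by 0.25 ± 0.05 (SE, log2), to 84.0% of siNC (limma, adjusted p 0.00979), while over 6 libraries its difference was -0.13 ± 0.10 (adjusted p 0.675). An antisense gene, PRKG1-AS1, overlaps 9.6% of its exon length; the sources used here do not say whether reads were counted by strand. DKK3 (ENSG00000050165, chromosome 11, 11963106 to 12009769, minus strand), a DKK relative that does not share the LRP-blocking role of DKK1, had siNC values of 12.88, 12.96 and 12.87; siRPL13 replicates 1 and 2 stood at 12.70 and 12.75, the library labelled siRPL13 replicate 3 at 12.97. The latter was again the highest of the 6. Over 6 libraries the difference of DKK3 was -0.10 ± 0.08 (limma, adjusted p 0.686). In the 5-library comparison it fell by 0.18 ± 0.05 (limma, adjusted p 0.0318), a call that did not hold with quantile scaling (-0.12, adjusted p 0.104) or without a variance trend (adjusted p 0.0591). SFRP4, the other antagonist tested, lay between 6.60 and 6.83 over all libraries, with overlapping groups. DKK2, at 1.53 to 1.59, was under the filter.

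**Figure D2:**
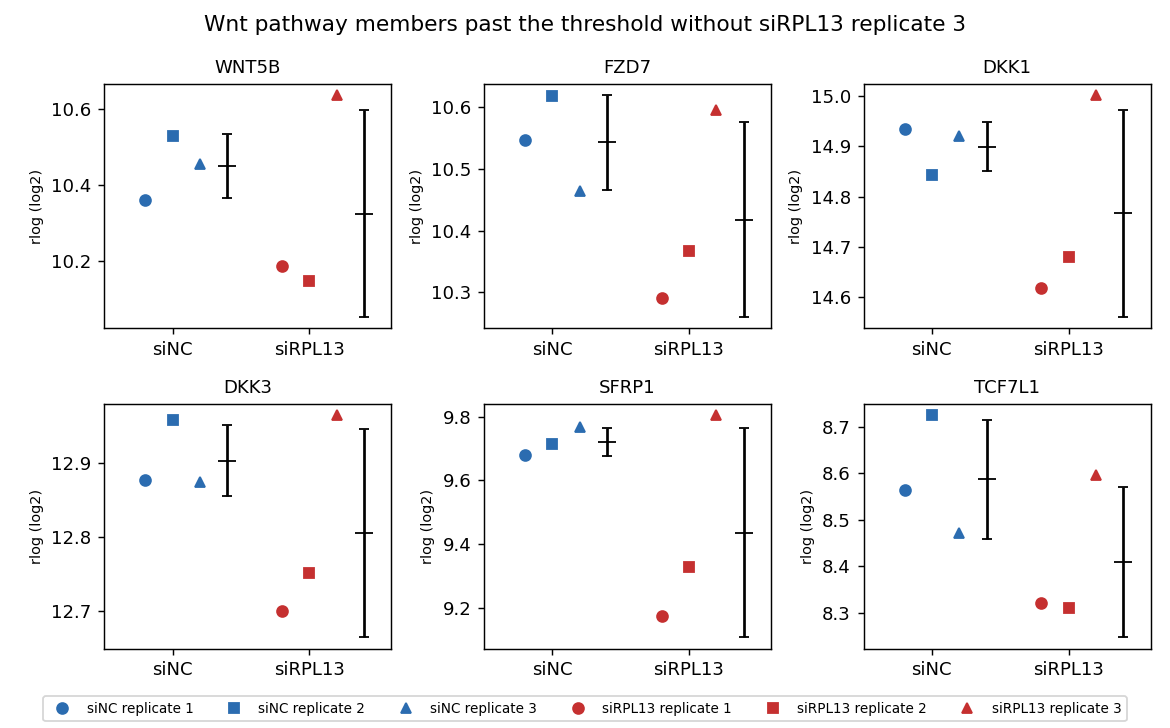
The 6 members that fell in the 5-library comparison, as rlog values (vertical axes, log2, not starting at 0) for siNC (blue) and siRPL13 (red); symbols mark the replicate (circle 1, square 2, triangle 3) and black bars the mean of 3 libraries ± SD. In each panel siRPL13 replicates 1 and 2 lie below every siNC library, and the library labelled siRPL13 replicate 3 lies within or above the siNC range, at 15.00 for DKK1 and 9.81 for SFRP1.

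Of 8 ligands tested 1 fell, 12.5% against 10.7% of all genes. WNT5B (ENSG00000111186, chromosome 12, 1529891 to 1647243, plus strand) measured 10.19 and 10.15 in siRPL13 replicates 1 and 2, 10.64 for the library labelled siRPL13 replicate 3, and 10.36, 10.53 and 10.46 in siNC. It fell by 0.28 ± 0.06 (SE, log2), to 82.2% of siNC (limma, adjusted p 0.0110), and over 6 libraries its difference was -0.13 ± 0.12 (adjusted p 0.745). WNT5A, its close relative, read 9.16, 8.90 and 9.10 in siNC and 8.96 and 8.99 in siRPL13 replicates 1 and 2, against 9.02 in the library labelled siRPL13 replicate 3. All siRPL13 libraries lay inside the siNC range, and the 5-library difference of WNT5A was -0.08 with a 95% interval of -0.26 to 0.11.

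WNT3, a ligand of the beta-catenin branch, had siNC values of 8.49, 8.46 and 8.57; siRPL13 replicates 1 and 2 stood at 8.29 and 8.36, the library labelled siRPL13 replicate 3 at 8.54. Its 5-library difference of -0.18 ± 0.07 (SE) did not pass (limma, adjusted p 0.100). WNT10A was low, at 3.39, 3.41 and 3.45 in siNC and at 3.36, 3.27 and 3.35 in siRPL13 replicates 1 to 3. It was the only tested member whose 3 siRPL13 libraries all lay below siNC, an order that 6.9% of all genes had, and its 6-library difference was -0.09 ± 0.04 (limma, adjusted p 0.589). WNT2B had a 5-library difference of -0.33 ± 0.12, the most negative of the members after SFRP1, that did not pass (adjusted p 0.0689); exons of ST7L on the opposite strand cover 21.2% of its exon length. WNT10B, WNT6 and WNT11 had overlapping groups, with 5-library differences of -0.08, 0.08 and -0.08. WNT9A, WNT4, WNT7B and WNT16 were under the filter with means of 2.79, 2.38, 1.58 and 0.23; WNT9A stood at 2.79, 2.82 and 2.85 in siNC and 2.73, 2.73 and 2.79 in siRPL13 and was not tested. PORCN, the enzyme that attaches the lipid to Wnt ligands, measured 8.42 and 8.47 in siRPL13 replicates 1 and 2, 8.58 for the library labelled siRPL13 replicate 3, and 8.45, 8.50 and 8.36 in siNC. Its 5-library difference was 0.01 with a 95% interval of -0.15 to 0.17.

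Of 8 Frizzled receptors, the membrane proteins that bind the ligands, FZD7 fell, 12.5% against 10.7% of all genes. All 8 had negative 5-library differences, from -0.24 to -0.03, while over 6 libraries 5 were negative and 3 positive; of all genes 50.5% and 50.4% were negative. FZD7 (ENSG00000155760, chromosome 2, 202034587 to 202038445, plus strand) read 10.55, 10.62 and 10.46 in siNC and 10.29 and 10.37 in siRPL13 replicates 1 and 2, against 10.60 in the library labelled siRPL13 replicate 3, inside the siNC range. It fell by 0.21 ± 0.06 (SE, log2; limma, adjusted p 0.0333, and 0.0519 with no filter on low genes), and over 6 libraries its difference was -0.13 ± 0.09 (adjusted p 0.656). FZD6 had siNC values of 10.73, 10.58 and 10.50; siRPL13 replicates 1 and 2 stood at 10.35 and 10.45, the library labelled siRPL13 replicate 3 at 10.50. Its difference of -0.20 ± 0.07 did not pass (adjusted p 0.0695).

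FZD1 measured 10.90 and 10.80 in siRPL13 replicates 1 and 2, 10.96 for the library labelled siRPL13 replicate 3, and 10.88, 10.89 and 10.87 in siNC, with a 5-library difference of -0.03 and a 95% interval of -0.15 to 0.09. FZD2 was level in 5 libraries, between 9.82 and 9.91, and stood at 10.13 in the library labelled siRPL13 replicate 3, the highest of the 6. FZD8 had a difference of -0.24 ± 0.08 (limma, adjusted p 0.0720) and FZD4 of -0.16 ± 0.10 (adjusted p 0.266); exons of PRSS23 on the opposite strand cover 18.9% of FZD4. FZD5 and FZD3 had differences of -0.09 and -0.03.

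None of the 5 coreceptors passed, and their differences pointed both ways. LRP5 read 11.58, 11.87 and 11.72 in siNC and 11.50 and 11.51 in siRPL13 replicates 1 and 2, against 11.96 in the library labelled siRPL13 replicate 3, which was the highest of the 6. Its 5-library difference was -0.22 ± 0.07 (SE; limma, adjusted p 0.0618). LRP6, which shares the beta-catenin branch with LRP5, stood at 10.30, 10.32 and 10.23 in siNC and at 10.51, 10.40 and 10.35 in siRPL13 replicates 1 to 3. It was the only tested member with all 3 siRPL13 libraries above siNC, as were 6.92% of all genes, and its differences were 0.13 ± 0.07 over 6 libraries (adjusted p 0.590) and 0.17 ± 0.06 over 5 (adjusted p 0.0661). RYK, a catalytically inactive kinase receptor for Wnt ligands, had siNC values of 10.52, 10.42 and 10.47; siRPL13 replicates 1 and 2 stood at 10.45 and 10.48, the library labelled siRPL13 replicate 3 at 10.24, the lowest of the 6. The receptor kinases ROR1 and ROR2, at mean rlog values of 4.43 and 6.60, had 5-library differences of 0.16 ± 0.05 (adjusted p 0.0668) and -0.23 ± 0.12 (adjusted p 0.199). LGR4 measured 11.61 and 11.60 in siRPL13 replicates 1 and 2, 11.47 for the library labelled siRPL13 replicate 3, and 11.73, 11.54 and 11.40 in siNC, all inside the siNC range.

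**Figure D3:**
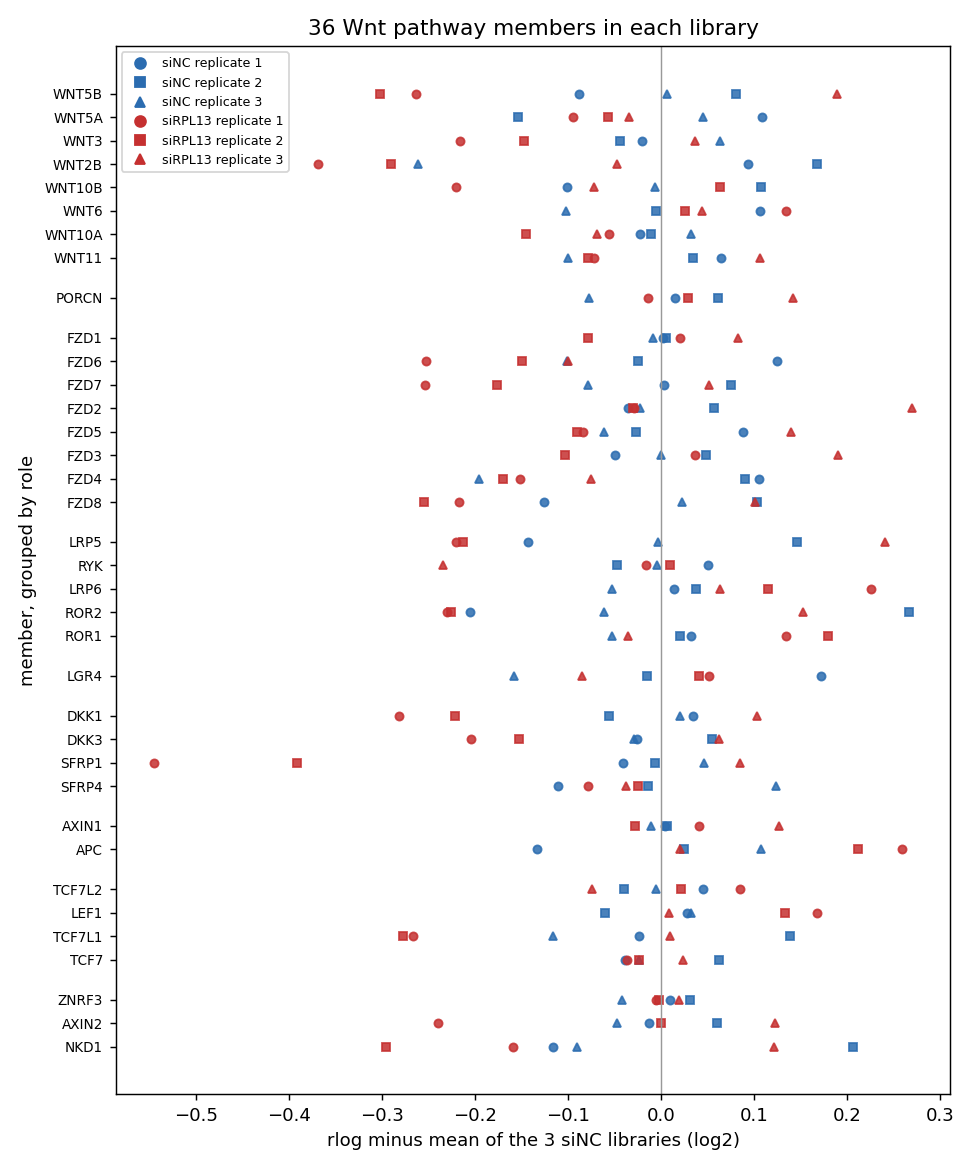
Each of the 36 tested members in every library, as its rlog less the siNC mean (horizontal axis, log2); siNC is blue, siRPL13 red, circles, squares and triangles are replicates 1, 2 and 3, with members grouped by role on the vertical axis. For SFRP1 siRPL13 replicates 1 and 2 lie at -0.55 and -0.39, and the library labelled siRPL13 replicate 3 lies at 0.27 for FZD2 and 0.24 for LRP5.

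Among the transcription factors TCF7L1, which mostly represses target genes in the absence of the signal, fell, and LEF1, which mostly activates them, did not pass. Of the 4 tested 1 fell, 25% against 10.7% of all genes. TCF7L1 (ENSG00000152284, chromosome 2, 85133410 to 85310388, plus strand) read 8.56, 8.73 and 8.47 in siNC and 8.32 and 8.31 in siRPL13 replicates 1 and 2, against 8.60 in the library labelled siRPL13 replicate 3. It fell by 0.27 ± 0.08 (SE, log2; limma, adjusted p 0.0430), and over 6 libraries its difference was -0.18 ± 0.10 (adjusted p 0.621). LEF1 had siNC values of 8.64, 8.55 and 8.65; siRPL13 replicates 1 and 2 stood at 8.78 and 8.75, the library labelled siRPL13 replicate 3 at 8.62, a 5-library difference of 0.15 ± 0.07 (adjusted p 0.150). TCF7L2, the highest of the 4 per length, measured 10.41 and 10.35 in siRPL13 replicates 1 and 2, 10.25 for the library labelled siRPL13 replicate 3, and 10.37, 10.28 and 10.32 in siNC. Its groups overlapped, as did those of TCF7, which lay between 7.98 and 8.08.

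Of the 4 feedback genes among the members, AXIN2, ZNRF3 and NKD1 did not pass in either comparison and LGR5 was not tested. AXIN2, the scaffold often used as a readout of beta-catenin activity, read 6.26, 6.33 and 6.22 in siNC and 6.03 and 6.27 in siRPL13 replicates 1 and 2, against 6.39 in the library labelled siRPL13 replicate 3. The siRPL13 libraries were spread on both sides of siNC, and the 5-library difference of AXIN2 was -0.12 with a 95% interval of -0.31 to 0.07; a gene on the same strand covers 25.2% of its exon length. ZNRF3, the ligase that removes Frizzled receptors from the membrane, had siNC values of 10.08, 10.11 and 10.03; siRPL13 replicates 1 and 2 stood at 10.07 and 10.07, the library labelled siRPL13 replicate 3 at 10.09. All its siRPL13 values lay inside the siNC range, with a 5-library difference of 0.00 and a 95% interval of -0.13 to 0.12. NKD1, an inhibitor that binds Dishevelled, measured 4.66 and 4.53 in siRPL13 replicates 1 and 2, 4.94 for the library labelled siRPL13 replicate 3, and 4.71, 5.03 and 4.73 in siNC (5-library difference -0.23 ± 0.09; adjusted p 0.109). LGR5 lay between 2.40 and 2.60, under the filter.

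AXIN1, the constant scaffold of the destruction complex, read 9.87, 9.88 and 9.86 in siNC and 9.91 and 9.84 in siRPL13 replicates 1 and 2, against 10.00 in the library labelled siRPL13 replicate 3. APC, its partner, had siNC values of 9.16, 9.32 and 9.40; siRPL13 replicates 1 and 2 stood at 9.55 and 9.51, the library labelled siRPL13 replicate 3 at 9.31. The difference of APC was 0.24 ± 0.08 over 5 libraries (SE; limma, adjusted p 0.0526) and 0.16 ± 0.09 over 6 (adjusted p 0.607).

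The library labelled siRPL13 replicate 3 stood apart from the other siRPL13 libraries for these genes. Relative to the siNC mean, the median over the 36 members was -0.08 in siRPL13 replicate 1, -0.08 in siRPL13 replicate 2 and 0.05 in that library. It lay above every siNC library for 14 members, 38.9% of them against 29.4% of all genes tested, and below every one for 3, 8.33% against 27.8%. Among the 6 members that fell it lay above the siNC range for DKK1, DKK3, SFRP1 and WNT5B and inside it for FZD7 and TCF7L1. Of all 1642 genes that fell, 43.9% had that library above the siNC range. Of 10 glial markers tested, the intermediate filament genes VIM and NES fell and PTPRZ1 rose, where 10.7% of all genes fell and 8.42% rose. For VIM and NES the library labelled siRPL13 replicate 3, at 15.98 and 14.41, lay below every siNC library. That differs from the 6 members that fell. The summed level of the glial markers lay between 17.65 and 17.87 in siNC and between 17.50 and 17.59 in siRPL13 (log2); its part in the results above was not tested.

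The rest of the pathway was read from lists of 139 further genes, of which 125 were in the table and 118 were tested. These lists were drawn up with earlier results of these data known, so their shares are descriptions. In the 5-library comparison 19 rose and 15 fell, 28.8% against 19.1% of all genes, with a median difference of -0.01. With 6 libraries 0 passed (limma); 12 of the 118 had an unadjusted p under 0.05, 10.2% against 8.32% of all genes. The 34 called became 4 without siRPL13 replicate 1 (3.39% against 1.59% of all genes) and 15 without siRPL13 replicate 2 (12.7% against 6.15%). CTNNB1, which encodes beta-catenin, measured 13.86 and 13.84 in siRPL13 replicates 1 and 2, 13.72 for the library labelled siRPL13 replicate 3, and 13.95, 13.74 and 13.83 in siNC. Its 5-library difference was 0.01 with a 95% interval of -0.12 to 0.15.

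Of 28 genes around the destruction complex 5 rose, 17.9% against 8.42% of all genes, and 0 fell, against 10.7%. Counted in either direction, 19.1% of all genes were called. GSK3B, the kinase that marks beta-catenin, rose by 0.29 ± 0.05 (SE, log2; limma, adjusted p 0.00470), from 11.09, 11.01 and 11.00 in siNC to 11.32 and 11.31 in siRPL13 replicates 1 and 2, with 10.81 in the library labelled siRPL13 replicate 3, below every other library. RNF146, a ligase that degrades AXIN, rose by 0.24 ± 0.06, the priming kinase gene CSNK1A1 by 0.22 ± 0.05 and PPP2R5A, a phosphatase subunit, by 0.22 ± 0.06. The products of GSK3B and CSNK1A1 promote, and that of RNF146 opposes, the turnover of beta-catenin.

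Of 6 extracellular and membrane antagonists outside the members 2 fell, 33.3% against 10.7% of all genes, and 0 rose, against 8.42%. For both genes that fell, the library labelled siRPL13 replicate 3 lay inside the siNC range. KREMEN1, the receptor that works with DKK1, fell by 0.32 ± 0.07 (SE, log2; limma, adjusted p 0.00875), and APCDD1, a membrane inhibitor of Wnt signalling, fell by 0.36 ± 0.09 (adjusted p 0.0181). Of 7 genes tested from a list of ligand release, R-spondins and proteoglycans, 3 were called, 42.9% against 19.1% of all genes. GPC6 rose by 0.49 ± 0.06, while SDC1 fell by 0.36 ± 0.06 and GPC4 by 0.26 ± 0.06. All 3 are cell surface heparan sulfate proteoglycans. No R-spondin was among the 7, since RSPO3, with a mean rlog of 2.40, was under the filter. WLS, which carries Wnt ligands to the surface, was not among the genes called.

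Of 22 nuclear cofactors 1 rose and 4 fell, 22.7% called against 19.1% of all genes. Of all genes 8.42% rose and 10.7% fell. CTNNBIP1, which keeps beta-catenin off the TCF factors, fell by 0.37 ± 0.07 (SE, log2) and HBP1, a repressor of TCF-driven transcription, by 0.34 ± 0.08. TBL1X fell by 0.29 ± 0.08 and the remodelling ATPase gene SMARCA4 by 0.17 ± 0.05, while CREBBP, an acetyltransferase that works with beta-catenin, rose by 0.21 ± 0.05. For CTNNBIP1 all 3 siRPL13 libraries lay below siNC and for CREBBP all 3 lay above, at adjusted p 0.589 over 6 libraries for each (limma).

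Of 26 reported target genes outside the members 7 rose and 3 fell, 38.5% against 19.1% of all genes. NRCAM, a neural adhesion gene, rose by 0.37 ± 0.06 (SE, log2), MITF by 0.39 ± 0.05, ID2 by 0.50 ± 0.09 and JUN by 0.30 ± 0.06. The angiogenic factor gene VEGFA fell by 0.69 ± 0.11, L1CAM by 0.60 ± 0.07 and BIRC5, which encodes survivin, by 0.44 ± 0.07. Each of these has other known regulators. All 3 siRPL13 libraries lay above siNC for 5 of the 26, 19.2% against 6.92% of all genes. They lay below siNC for 1, 3.85% against 6.9%. Among the genes that rose, JUN, NRCAM and FOSL1 had all 3 above. JUN stood at 13.70, 13.65 and 13.57 in siRPL13 replicates 1 to 3 against 13.29, 13.42 and 13.41 in siNC. MYC read 10.45, 10.81 and 10.86 in siNC and 10.92 and 10.86 in siRPL13 replicates 1 and 2, against 10.81 in the library labelled siRPL13 replicate 3, a 5-library difference of 0.19 ± 0.10 (limma, adjusted p 0.222). CCND1, which encodes cyclin D1, had siNC values of 13.13, 13.13 and 13.28; siRPL13 replicates 1 and 2 stood at 13.06 and 13.07, the library labelled siRPL13 replicate 3 at 13.25, a difference of -0.12 ± 0.06 (adjusted p 0.170).

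Planar polarity and other beta-catenin-independent genes changed both ways: of 29 tested, 5 rose and 4 fell, 31% against 19.1% of all genes. CELSR2, a polarity cadherin, fell by 0.71 ± 0.08 (SE, log2; limma, adjusted p 0.000483), from 11.23, 11.46 and 11.19 in siNC to 10.53 and 10.63 in siRPL13 replicates 1 and 2, with 11.42 in the library labelled siRPL13 replicate 3. It had the lowest difference of the list. CAMK2G fell by 0.31 ± 0.05, PTK7, a polarity receptor, by 0.28 ± 0.06 and VANGL1, a core polarity gene, by 0.22 ± 0.06. The kinase genes PRKCA, ROCK2 and CAMK2D rose by 0.35 ± 0.05, 0.34 ± 0.06 and 0.19 ± 0.05, and the cadherin gene FAT4 rose by 0.34 ± 0.08.

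**Figure D4:**
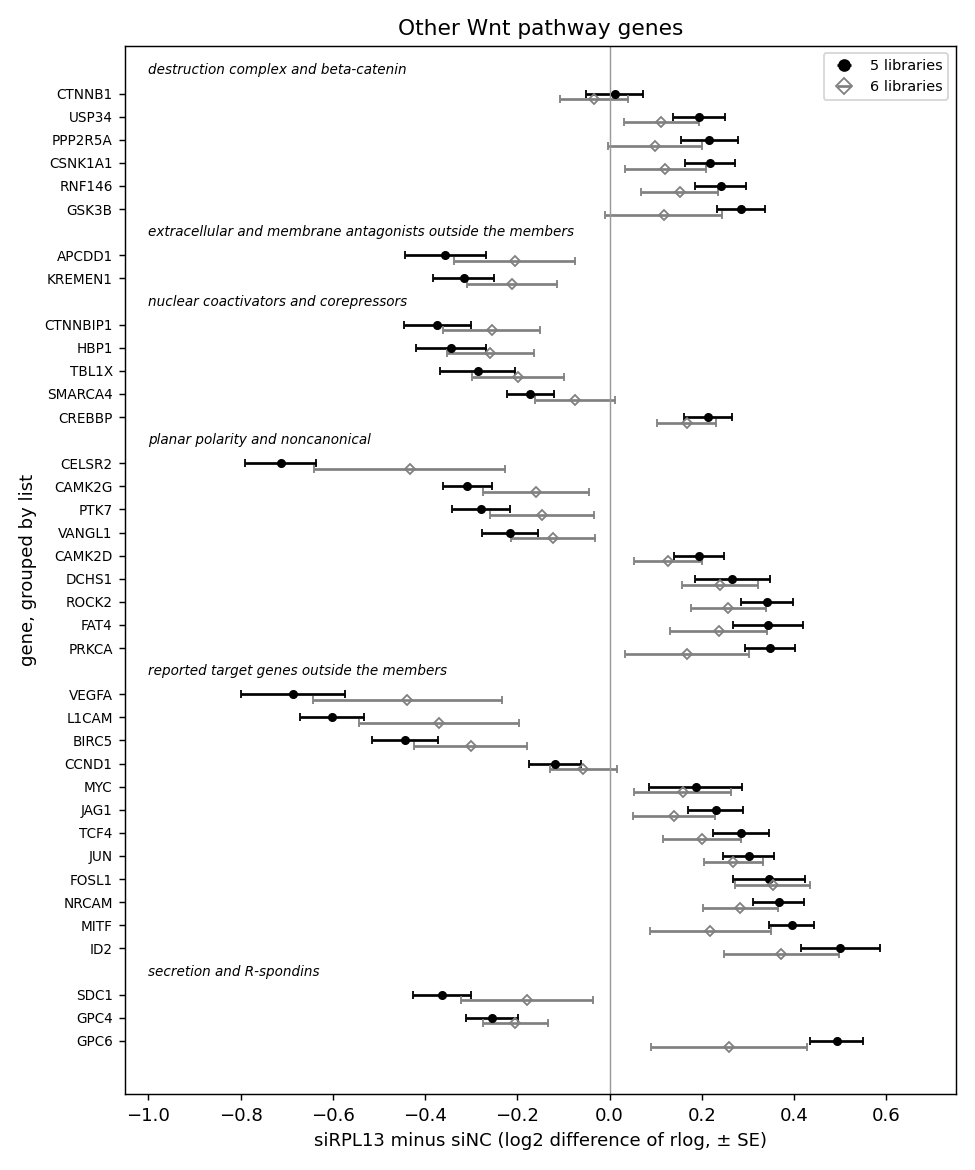
Log2 difference, siRPL13 minus siNC, ± SE (horizontal axis) of the other pathway genes called in the 5-library comparison and of CTNNB1, MYC and CCND1, grouped by list, for 5 libraries (filled circles) and 6 libraries (open diamonds). CELSR2 lies at -0.71 and -0.43 and CTNNB1 at 0.01 and -0.03.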

How the data were processed

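The authors deposited 1 regularized-log (rlog) value per Ensembl gene and library, on the log2 scale. Per the submitters' processing notes the tools were DESeq2, HTSeq 0.6.1p1, TopHat and Trimmomatic 0.33 and the build GRCh38.p7, with no role or settings given. The labels' protocols give 1.5 µg of total RNA per library. Symbols came from a table of current names (20499 of 21429 identifiers), otherwise from GENCODE 29 (20608 matched), which gave gene types, positions and exon lengths. Promoters came from RefSeq. Members and gene lists were chosen with earlier results of these data known.

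Groups and replicate numbers came from the labels, and p-values reflect only how far libraries spread, whose cultures the labels do not describe further. Genes whose mean rlog reached 3 were fitted with limma 3.58.1 in R 4.3.3 (lmFit, eBayes with a variance trend, two-sided, Benjamini-Hochberg over all 15327 genes, threshold 0.05; 95% intervals from the same fit). All adjusted p-values are limma's. The fit was tested on simulated data. No pair of libraries shared an identical value (0 in each). Values in every library are given for members past the threshold, members whose groups do not overlap over 6 libraries and the 3 with the highest mean rlog in each role; of each list, up to 4 genes called in each direction with the smallest p. Alternatives were quantile scaling, a filter at a mean rlog of 5, no filter, no trend, library weights, a replicate block and leaving out each library. Figures used matplotlib 3.10.9.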

Additional observations from a re-analysis of the deposited data

How the results depend on the processing

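With 6 libraries the count of members called stayed 0 with quantile scaling, no filter, a filter at 5, no variance trend, the replicate block and when any library was left out except the one labelled siRPL13 replicate 3. It became 14 (3 higher, 11 lower; 38.9% against 34.6% of all genes) with library weights and lay between 0 and 6 when each library was left out; the pathway genes became 45 and lay between 0 and 34. With 6 libraries the estimate of the weights stopped before it converged, at 7.19 for siRPL13 replicate 2, 0.163 for the library labelled siRPL13 replicate 3 and 0.596 to 1.70 for the others, so these weighted values are provisional. RPL13 became -1.02 with weights and lay between -1.06 (without that library) and -0.53 when each library was left out. In the 5-library comparison the 6 members became 12 with library weights (33.3% against 28% of all genes), including all 6. With the replicate block the count was 13 (12 lower, 1 higher, 36.1% against 19.9%), also including all 6. That fit sets siNC replicate 3 in a block of its own, so this library adds nothing to the difference. The differences are those without siNC replicate 3 (SFRP1 -0.44 in both), so the block is not a separate check on the 5 libraries. Leaving out a further library gave 0 to 10 members and 4 to 40 pathway genes: 0 and 4 without siRPL13 replicate 1, 1 (SFRP1) and 15 without siRPL13 replicate 2, and 3 (DKK1, SFRP1, WNT5B) without siNC replicate 2. The remaining siRPL13 library is then assumed to vary like the siNC group. The cause of these shifts was not tested. Deviations of same-numbered libraries from their group means correlated at 0.08, -0.43 and -0.33, and those of unlike-numbered libraries at -0.38 to 0.45. The siRPL13 deviations include the library in which RPL13 was not lowered, so they cannot show whether replicate numbers pair the libraries. The unknown depth limits what can be said of low ligands.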
